A study of Homo sapiens with 2 samples.

Results

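The MYC, MAX and MXD network is a set of transcription factor genes whose proteins pair with one another, and 10 of its genes were taken here by symbol from the 62573 rows of the deposited FPKM table: MYC, MYCN, MYCL, MAX, MXD1, MXD3, MXD4, MNT, MGA and MLX. All 10 symbols were found, each in 1 row, and 8 of the 10 reached 1 FPKM (fragments per 1000 bases of transcript per 1000000 mapped) in one library or both. MYCN and MYCL did not pass this filter and are described by their values only. The data came from SK-N-AS, a human neuroblastoma cell line that carries no MYCN amplification, grown untreated. AS STRAP KO was a clone grown from a single sorted cell after CRISPR-Cas9 editing of STRAP, the gene of the serine-threonine kinase receptor-associated protein, and AS WT was the unedited culture. Each condition had 1 poly(A)-selected RNA library, so no difference between the conditions could be tested, and an effect of STRAP, a property of the clone and the variation of a single library cannot be told apart.

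MYC family proteins do not bind DNA alone. They pair with MAX, and the MYC-MAX dimer binds a short palindrome called the E-box and recruits coactivators to promoters of growth genes. MXD proteins and MNT also pair with MAX, bind the same E-box and bring a SIN3 and histone deacetylase corepressor, while MGA brings MAX into a Polycomb complex and MLX is the partner of the glucose-sensing factors MLXIP and MLXIPL. In neuroblastoma the family is best known for amplification of MYCN, and lines without that amplification often express MYC in its place.

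The promoters of 3 members hold the E-box itself, and these windows are shown because the E-box is a motif that dimers of the network are known to bind. They were read 5′ to 3′ on the gene's strand from the RefSeq promoter table (GRCh38.p14), with the 6 bases CACGTG in capitals. The MXD4 window is chr4:2262315-2262359 on the minus strand, the MNT window chr17:2401221-2401280 on the minus strand and the MLX window chr17:42567023-42567082 on the plus strand.
MXD4: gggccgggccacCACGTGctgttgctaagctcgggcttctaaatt
MNT: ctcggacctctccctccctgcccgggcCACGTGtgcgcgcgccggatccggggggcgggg
MLX: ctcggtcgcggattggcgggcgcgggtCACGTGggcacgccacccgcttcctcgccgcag

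The promoter table covered 250 bases before to 50 bases after each annotated start and held 9 of the 10 members. CACGTG, which reads the same on both strands, was present for 3 of those 9 genes (33.3%), against 8.77% of all 27305 genes in the table, 7.26% of its 35116 promoters and 12.7% of the 8586 genes with a promoter there that were expressed in rows of their own. The looser E-box CANNTG, which also matches every CACGTG, was present for 8 of the 9 members (88.9%), against 73.1% of all genes and 68.7% of all promoters, and MAX was the member without one. The motif began 238 bases before the start in MXD4, 193 bases before it in MNT and 50 bases before it in MLX. These 3 genes did not move one way: MXD4 was the higher in AS STRAP KO, and MNT and MLX were the lower, as described for each gene below. A match describes the letters of the promoter and does not show that a factor was bound.

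By plain FPKM, MYC was the member with the widest difference between the libraries, although MGA was slightly wider, in the other direction, at a common total without mitochondrial rows (1.10 for MGA and -1.07 for MYC) and relative to neighbouring genes (1.29 for MGA and -1.28 for MYC). MYC (ENSG00000136997.22, chr8:127735434-127742951, plus strand, 3 exons in the canonical GENCODE 44 transcript) had 17.6 FPKM in AS STRAP KO, against 41.1 FPKM in AS WT. The log2 ratio of AS STRAP KO over AS WT was -1.22, and AS WT held 2.34 times the AS STRAP KO level. From the depth recovered from low values, these levels correspond to about 1654 and 3800 reads, which gives a 95% interval of the log2 ratio of -1.31 to -1.14 that covers counting error only. Of all rows at 1 FPKM or above, MYC ranked higher than 54.5% in AS STRAP KO and higher than 75.2% in AS WT. MYC was thus lower in AS STRAP KO by rank as well as by FPKM, and in these bulk libraries fewer cells expressing MYC and less MYC RNA per cell cannot be told apart. Among all 13527 rows that passed the filter, 8.14% had a log2 ratio as low as that of MYC or lower.

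**Figure D1:**
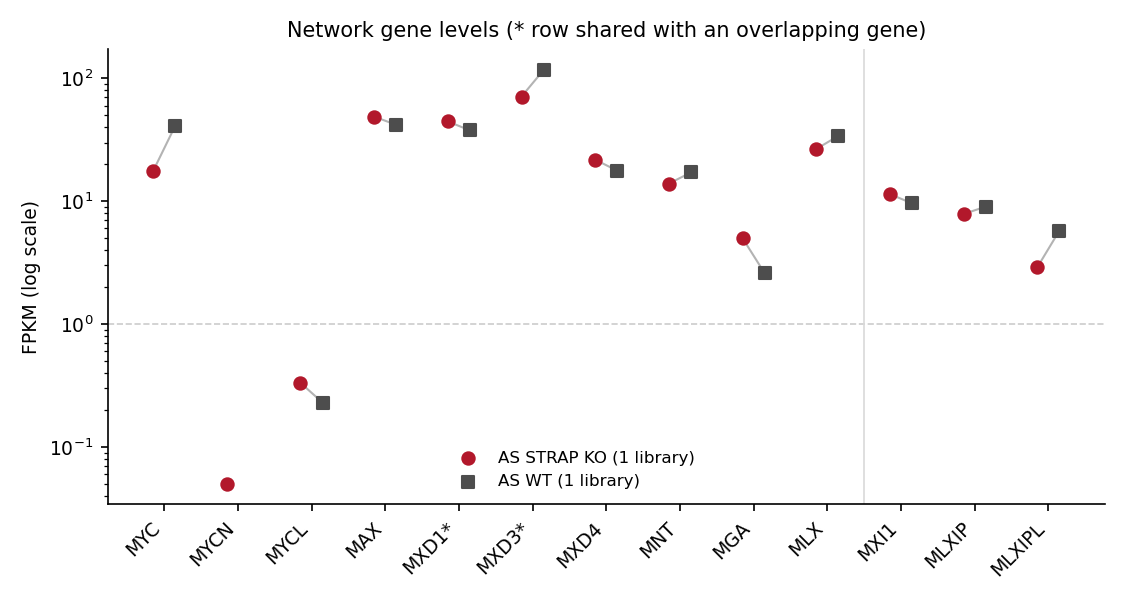
FPKM (log scale) of the 10 network members and, right of the vertical line, 3 further network genes, with 1 circle for AS STRAP KO and 1 square for AS WT per gene; the dashed line marks 1 FPKM, an asterisk marks a row shared with an overlapping gene, and MYCN, listed at 0 in AS WT, has no square. MYC was the lower in AS STRAP KO (17.6 against 41.1 FPKM), MGA was the higher (4.99 against 2.59 FPKM), and MYCN and MYCL lay below 1 FPKM in both libraries.

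The other MYC family genes were near absent. MYCN (chr2:15940550-15947007, plus strand), the family member amplified in high-risk neuroblastoma, had 0.0504 FPKM in AS STRAP KO, which corresponds to about 3.24 reads, and was listed at 0 in AS WT. MYCL (chr1:39895428-39902256, minus strand), the family member first known from lung cancer, had 0.332 FPKM in AS STRAP KO and 0.229 FPKM in AS WT. The counting interval of the log2 ratio of MYCL, -0.36 to 1.41, spans 0, so no difference in MYCL was detectable at this depth. Neither gene took up a level near that of MYC in the AS STRAP KO library: MYCN and MYCL together stayed below 1 FPKM there.

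Around MYC, the neighbouring genes did not share its difference. Of 19 expressed protein-coding genes with rows of their own starting within 5 Mb of MYC, 19 had a higher log2 ratio than MYC. Their median was 0.05, and the lowest was -0.86, that of SQLE, an enzyme of sterol synthesis. The nearest expressed one, LRATD2, had 91.6 FPKM in AS STRAP KO and 50.5 FPKM in AS WT, a log2 ratio of 0.86. The row of PVT1, the long noncoding RNA gene beside MYC, also carries microRNA genes that lie inside it and had 86.9 FPKM in AS STRAP KO and 104 FPKM in AS WT, a log2 ratio of -0.26. Near MYCN, expressed genes of the locus list were DDX1 and NBAS. DDX1, an RNA helicase gene often co-amplified with MYCN, had 80.8 FPKM in AS STRAP KO and 88.9 FPKM in AS WT, and NBAS, a gene of vesicle transport, had 15.6 FPKM in AS STRAP KO and 18.7 FPKM in AS WT. FAM49A, also listed for the locus, had 0.109 FPKM in AS STRAP KO and 0.0170 FPKM in AS WT, and MYCNOS, the antisense gene of MYCN, MYCNUT and GACAT3 were listed at 0 in both libraries.

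MAX, the shared partner of the MYC and MXD proteins, was close to level between the libraries. MAX (chr14:65006174-65102695, minus strand) had 48.8 FPKM in AS STRAP KO and 41.8 FPKM in AS WT, a log2 ratio of 0.22 with a counting interval of 0.13 to 0.31. The 32 expressed protein-coding genes with rows of their own within 5 Mb of its start had a median log2 ratio of 0.34. MAX thus lay 0.12 below its neighbours, and the sign of its difference depends on that reference. FPKM is scaled per transcript length, so levels can be set against each other within a library. MYC was at 0.361 times the FPKM of MAX in AS STRAP KO and at 0.982 times the FPKM of MAX in AS WT, and this ratio does not depend on any scaling between the libraries.

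The antagonist genes that share MAX with MYC took different directions, and none differed 2-fold. MXD4 (chr4:2247432-2262109, minus strand), a repressor of the MXD family, had 21.8 FPKM in AS STRAP KO and 17.7 FPKM in AS WT, a log2 ratio of 0.30 with a counting interval of 0.21 to 0.39. Relative to the median of its 52 neighbours, 0.34, the value was -0.04, so the direction of MXD4 also depends on the reference. MNT (chr17:2384073-2401104, minus strand), a MAX partner found in most tissues, had 13.9 FPKM in AS STRAP KO and 17.1 FPKM in AS WT, a log2 ratio of -0.30 with a counting interval of -0.39 to -0.21. MNT was on the same side, at -0.38, relative to the median of its 67 neighbours.

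The remaining MXD genes shared rows with overlapping genes, so their values cannot be split. The row of MXD1 (chr2:69897688-69942945, plus strand), first known as MAD, also holds SNRNP27, a gene of the spliceosomal tri-snRNP, and had 44.5 FPKM in AS STRAP KO and 37.7 FPKM in AS WT, a log2 ratio of 0.24. The row of MXD3 (chr5:177301461-177312757, minus strand), an MXD gene linked to proliferating cells, also holds RAB24, a small GTPase gene, and had 71.1 FPKM in AS STRAP KO and 117 FPKM in AS WT, a log2 ratio of -0.72. The MXD3 row was the highest of the 10 in both libraries, and how much of either row belongs to its MXD gene was not tested. MXI1, the remaining MXD family gene, was not among the 10 and had a row of its own with 11.4 FPKM in AS STRAP KO and 9.60 FPKM in AS WT, a log2 ratio of 0.25.

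Set against its antagonists, MYC was the lower in AS STRAP KO under either count of them. MYC was at 0.108 times the summed FPKM of the MXD1, MXD3, MXD4, MXI1 and MNT rows in AS STRAP KO and at 0.206 times that sum in AS WT. With the shared rows left out, MYC was at 0.374 times the sum of MXD4, MXI1 and MNT in AS STRAP KO and at 0.925 times that sum in AS WT. The sum of MXD4, MXI1 and MNT was itself at 0.966 times MAX in AS STRAP KO and 1.06 times MAX in AS WT. With the shared rows included, the sum of the antagonists was at 3.34 times MAX in AS STRAP KO and 4.76 times MAX in AS WT, so the antagonists stayed near their level relative to MAX only with those rows left out.

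MGA was the member with the widest difference in the other direction. MGA (chr15:41621134-41773081, plus strand, 24 exons), a large protein that pairs with MAX within the Polycomb complex PRC1.6, had 4.99 FPKM in AS STRAP KO and 2.59 FPKM in AS WT. The log2 ratio was 0.95 with a counting interval of 0.82 to 1.07, from about 1598 and 816 reads, and 9.21% of all rows that passed the filter had a ratio as high or higher. MGA was just short of the 2-fold mark, at 1.93-fold, and crossed it when the libraries were set to a common total. All 68 expressed protein-coding genes with rows of their own within 5 Mb of its start had a lower log2 ratio. Their median was -0.34 and their highest value 0.86, so MGA stood 1.29 above the median of these neighbours. Within the libraries, MYC was at 3.52 times the FPKM of MGA in AS STRAP KO and at 15.9 times in AS WT.

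**Figure D2:**
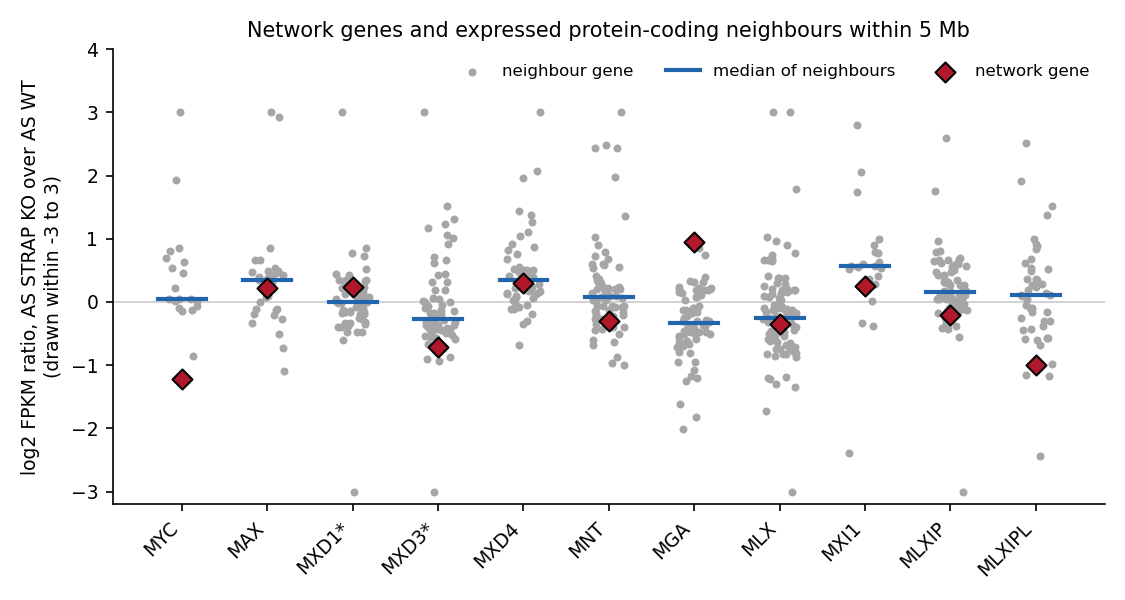
log2 FPKM ratio of AS STRAP KO over AS WT for each network gene that passed the filter (diamonds), for the expressed protein-coding genes with rows of their own that start within 5 Mb of it (grey points, drawn within -3 to 3) and for their median (blue bars); an asterisk marks a shared row. MYC, at -1.22, lay below all 19 of its neighbours, and MGA, at 0.95, lay above all 68 of its neighbours.

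The MLX arm of the network was lower in AS STRAP KO by small amounts, apart from its least expressed gene. MLX (chr17:42567072-42573239, plus strand) had 26.6 FPKM in AS STRAP KO and 34.0 FPKM in AS WT, a log2 ratio of -0.36 with a counting interval of -0.45 to -0.26. The median of its 109 neighbours was -0.25, which leaves MLX at -0.10 relative to them. MLXIP, which encodes the MLX partner MondoA, had 7.87 FPKM in AS STRAP KO and 9.03 FPKM in AS WT, a log2 ratio of -0.20. MLXIPL, which encodes the carbohydrate response factor ChREBP, had 2.90 FPKM in AS STRAP KO and 5.76 FPKM in AS WT, a log2 ratio of -0.99 with a counting interval of -1.22 to -0.76 that includes the 2-fold mark. MLXIP and MLXIPL were not among the 10.

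As a set, the members differed between the libraries about as often as all rows did. Of the 8 members that passed the filter, MYC was the 1 whose level was lower by 2-fold or more in AS STRAP KO, beside 10.6% of all rows, and 0 were higher by that much, beside 8.31% of all rows. Among rows that reached 10 FPKM in either library, where MYC also stands, the shares were 5.38% lower and 4.75% higher. A count of 1 in 8 is near these shares and is no result about the network as a set. The 8 ratios fell on both sides, with 4 lower and 4 higher in AS STRAP KO, and had a median of -0.04, beside 0.00 over all rows.

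**Figure D3:**
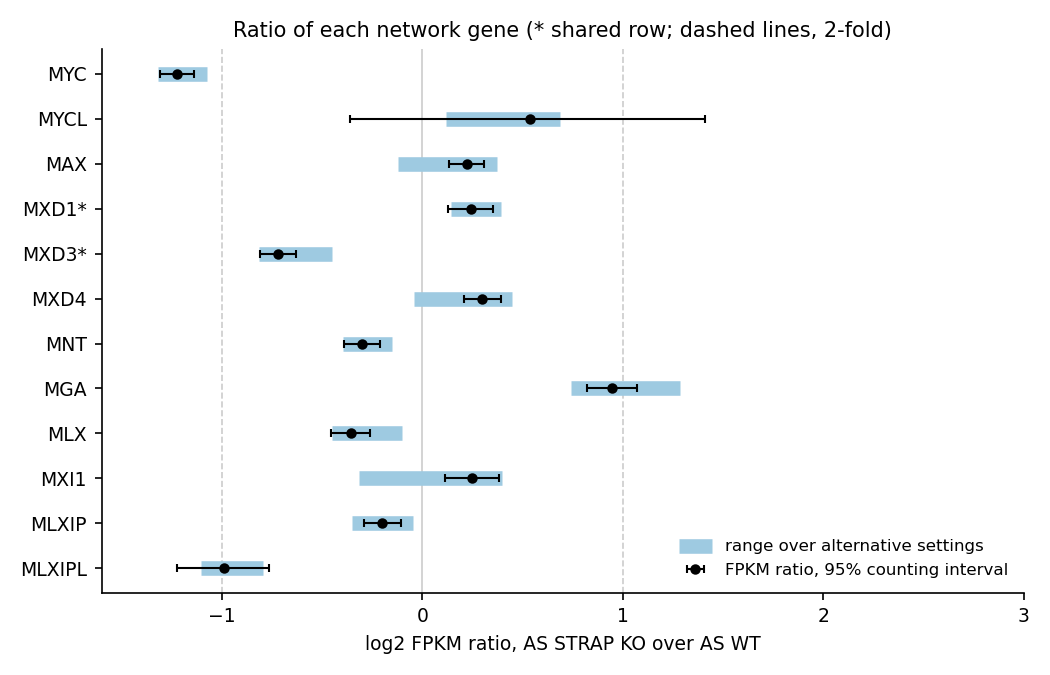
log2 FPKM ratio of AS STRAP KO over AS WT for each network gene with a value above 0 in both libraries (points), with its 95% counting interval (black bars) and the range over the alternative settings (blue bands); dashed lines mark a 2-fold difference and an asterisk marks a shared row. MYC stayed below -1 in every setting shown (-1.32 to -1.07), while the bands of MAX, MXD4 and MXI1 crossed 0.

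The order of the levels differed between the libraries mainly through MYC. Among the 6 expressed members with rows of their own, the order in AS STRAP KO was MAX, MLX, MXD4, MYC, MNT and MGA. In AS WT the order was MAX, MYC, MLX, MXD4, MNT and MGA. In AS WT, MAX was at 1.02 times MYC, with a counting interval of 0.964 to 1.07, and MXD4 was at 1.03 times MNT, with an interval of 0.968 to 1.10, so neither pair was separated beyond counting error. In AS STRAP KO every neighbouring pair was separated beyond it, with the smallest step at 1.22-fold, MLX over MXD4. With 1 library each, the spread of these levels between cultures is not known.

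As shares of the summed FPKM of the 8 members in rows of their own, MYC made up 13.1% in AS STRAP KO and 26.6% in AS WT. MAX made up 36.4% in AS STRAP KO and 27.1% in AS WT, and MXD4 made up 16.2% in AS STRAP KO and 11.4% in AS WT. MNT was at 10.4% in AS STRAP KO and 11.1% in AS WT, and MLX at 19.8% in AS STRAP KO and 22.0% in AS WT. MAX thus held the largest share in AS STRAP KO, where MYC came below MLX and MXD4, and MAX and MYC were not separated beyond counting error in AS WT.

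**Figure D4:**
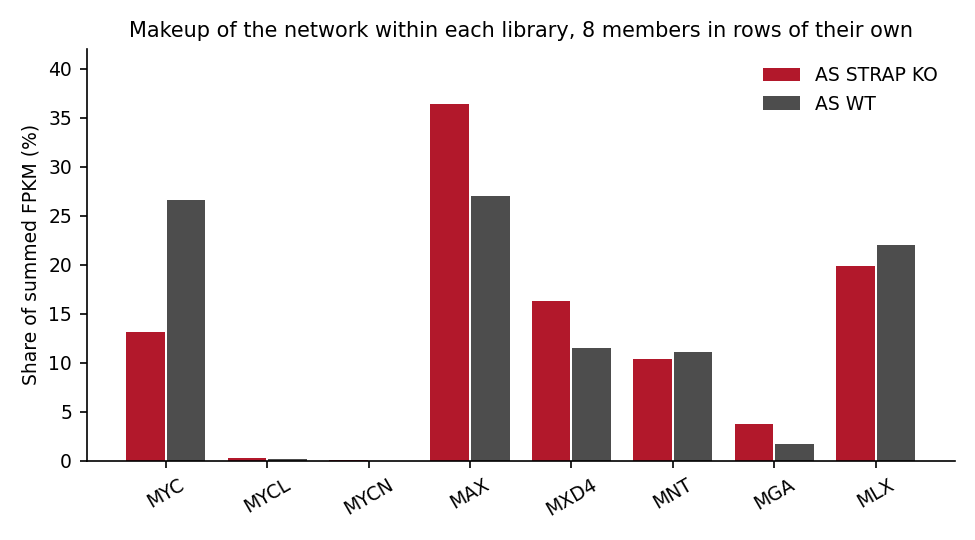
Share (%) of the summed FPKM of the 8 network members in rows of their own, with AS STRAP KO left of AS WT for each gene. MYC held 13.1% in AS STRAP KO and 26.6% in AS WT, MAX held 36.4% in AS STRAP KO and 27.1% in AS WT, and MYCL and MYCN were too low to form a visible bar.

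Genes that act on MYC from outside the network were listed by what they do. Of 18 expressed regulators of the MYC gene and its RNA, 3 were higher by 2-fold or more in AS STRAP KO, beside 8.31% of all rows, and 0 were lower by that much, beside 10.6%, with a median log2 ratio of 0.22. The count of 3 became 2 where 1 FPKM was asked of both libraries, 1 with 1 FPKM added and 0 among genes that reached 10 FPKM. TCF7, a nuclear effector of WNT signalling, had 8.70 FPKM in AS STRAP KO and 2.83 FPKM in AS WT. TCF7L1, of the same family, had 4.33 FPKM in AS STRAP KO and 2.13 FPKM in AS WT, and NFATC1, a calcium-regulated factor, had 1.35 FPKM in AS STRAP KO and 0.242 FPKM in AS WT, so that it passed the filter only through AS STRAP KO. IGF2BP2, which encodes an RNA-binding protein of a family that stabilises MYC mRNA, had 21.4 FPKM in AS STRAP KO and 38.7 FPKM in AS WT, a log2 ratio of -0.86.

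Cofactors of the MYC and MXD dimers were closer to level. Of 16 expressed coactivators, 1 was higher in AS STRAP KO by 2-fold or more, a share near the 8.31% of all rows: CREBBP, a histone acetyltransferase, with 26.1 FPKM in AS STRAP KO and 9.61 FPKM in AS WT. RUVBL2, an ATPase that binds MYC, had 120 FPKM in AS STRAP KO and 201 FPKM in AS WT, a log2 ratio of -0.74. None of 17 genes of MYC protein turnover and none of 17 genes of the SIN3 and histone deacetylase corepressor differed 2-fold, with median log2 ratios of 0.15 and 0.12. Among the turnover genes, SKP2, a ubiquitin ligase subunit, had 33.2 FPKM in AS STRAP KO and 50.8 FPKM in AS WT, and USP7, a deubiquitinase, had 177 FPKM in AS STRAP KO and 114 FPKM in AS WT. Protein levels were not measured in these data.

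The partners of MGA in PRC1.6 were mixed in direction. Of 7 expressed partners 4 were higher and 3 lower in AS STRAP KO, none by 2-fold, with a median log2 ratio of 0.04. E2F6, the DNA-binding E2F of the complex, had 11.8 FPKM in AS STRAP KO and 7.20 FPKM in AS WT, and PCGF6, its defining Polycomb subunit, had 8.90 FPKM in AS STRAP KO and 5.54 FPKM in AS WT. CBX3, a heterochromatin protein, had 214 FPKM in AS STRAP KO and 363 FPKM in AS WT, and L3MBTL2, a chromatin reader, had 6.05 FPKM in AS STRAP KO and 9.43 FPKM in AS WT. Of 8 other expressed factors of the same DNA-binding class, 1 was higher by 2-fold or more, near the 8.31% of all rows: TFE3, a factor of lysosomal genes, with 40.1 FPKM in AS STRAP KO and 19.1 FPKM in AS WT.

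Genes known from other systems to be induced by MYC were close to level, whatever their function. Of 117 listed symbols, 110 rows passed the filter. Of these, 3 were lower by 2-fold or more in AS STRAP KO, beside 10.6% of all rows, and 0 were higher by that much, beside 8.31%. Nearly all of the 110 reached 10 FPKM, and among all rows that did so the shares were smaller, 5.38% lower and 4.75% higher. The median log2 ratio of the 110 was -0.01, with quartiles of -0.30 and 0.22, and 58 were lower and 52 higher by any amount. The 3 lower genes were PES1, SHMT1 and PEG10. PES1, a factor of large ribosomal subunit assembly, had 145 FPKM in AS STRAP KO and 313 FPKM in AS WT. SHMT1, of one-carbon metabolism, had 0.620 FPKM in AS STRAP KO and 1.53 FPKM in AS WT and passed the filter only through AS WT, so the count of 3 became 2 where 1 FPKM was asked of both libraries, and PEG10, an imprinted gene, had 60.9 FPKM in AS STRAP KO and 186 FPKM in AS WT.

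By function, the 34 expressed ribosome biogenesis genes had a median log2 ratio of 0.07, and NOP58, a box C/D snoRNP protein, had 266 FPKM in AS STRAP KO and 158 FPKM in AS WT. The 22 nucleotide and polyamine genes had a median of -0.08, and TYMS, thymidylate synthase, had 159 FPKM in AS STRAP KO and 255 FPKM in AS WT. The 13 glycolysis and glutamine genes had a median of -0.01, and the glycolytic HK2 was at 18.2 FPKM in AS STRAP KO and 10.1 FPKM in AS WT, on the other side from PKM at 869 FPKM in AS STRAP KO and 1325 FPKM in AS WT. The 15 cell cycle genes had a median of -0.12, and CCNE1, cyclin E1, had 18.5 FPKM in AS STRAP KO and 10.1 FPKM in AS WT. The 26 other induced genes had a median of -0.02. LDHA, FBL, CDK7 and NOC4L were listed at 0 in both libraries although most cells use them, so an exact 0 in this table need not mean an unexpressed gene.

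**Figure D5:**
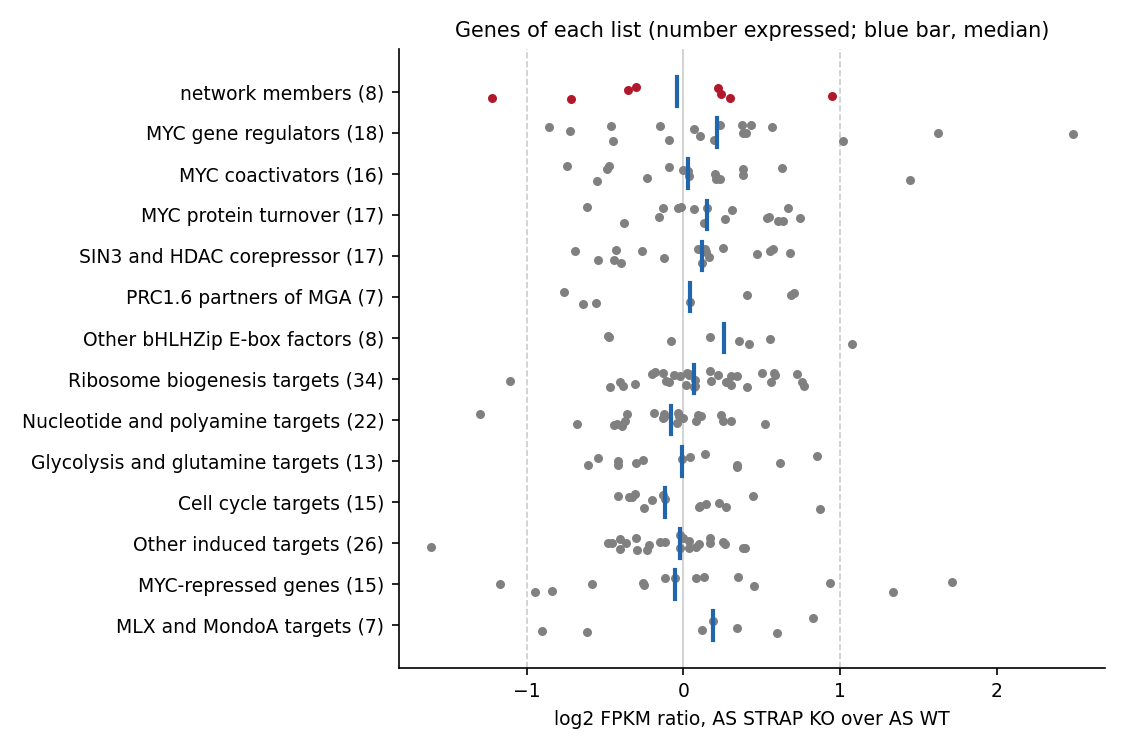
log2 FPKM ratio of AS STRAP KO over AS WT for every expressed gene of the network and 13 gene lists (points, 1 per gene), with the list median (blue bars); the number of expressed genes stands in brackets and dashed lines mark a 2-fold difference. The medians of the lists drawn lay between -0.12 (cell cycle targets) and 0.26 (other E-box factors of the same class).

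The induced genes were then split by whether their promoter held the E-box. CACGTG was found for 46.7% of the ribosome biogenesis genes with a promoter in the table (14 of 30), for 36.8% of the nucleotide and polyamine genes (7 of 19), for 46.2% of the glycolysis and glutamine genes (6 of 13), for 23.1% of the cell cycle genes (3 of 13) and for 42.9% of the other induced genes (9 of 21), beside 12.7% of expressed genes. The 34 expressed induced genes with CACGTG had a median log2 ratio of 0.04, and the 48 without it had a median of -0.07, with 1 gene in each lower by 2-fold or more. Both medians were close to 0. Over all expressed genes with a promoter in the table, the 1090 with CACGTG were lower by 2-fold or more in 4.40% of cases and higher in 6.42%. Of the 7475 without it, 7.25% were lower and 7.04% higher. These groups were not matched for expression level, and the part of the E-box in these shares was not tested.

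Genes known to be repressed by MYC were mixed. Of 15 expressed ones, 2 were higher by 2-fold or more in AS STRAP KO and 1 was lower by that much, near the 8.31% and 10.6% of all rows, with a median log2 ratio of -0.05. At a common total 3 were higher and 2 lower. CDKN1A, which encodes the cell cycle inhibitor p21, had 40.1 FPKM in AS STRAP KO and 12.2 FPKM in AS WT, a log2 ratio of 1.71. ITGA1, an integrin chain gene, shares a row with PELO, and the row had 105 FPKM in AS STRAP KO and 41.4 FPKM in AS WT. PDGFRB, a receptor tyrosine kinase gene, had 24.4 FPKM in AS STRAP KO and 55.0 FPKM in AS WT, and THBS1, an inhibitor of vessel growth, had 63.9 FPKM in AS STRAP KO and 123 FPKM in AS WT. The 7 expressed targets of MLX and MondoA had a median of 0.19 and none differed 2-fold, with TXNIP, which limits glucose uptake, at 43.4 FPKM in AS STRAP KO and 28.7 FPKM in AS WT, and FASN, fatty acid synthase, at 268 FPKM in AS STRAP KO and 501 FPKM in AS WT.

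Several facts of the libraries stand beside these values. STRAP itself had 179 FPKM in AS STRAP KO and 244 FPKM in AS WT, a log2 ratio of -0.45. Its mRNA was thus still present in the AS STRAP KO library. For the edited cells, the paper reports a sequence gap at the guide RNA site and immunoblots in which no STRAP protein was seen. FPKM per gene does not show whether the remaining mRNA carried the edit, so this value is no measure of the knockout. Of 12 adrenergic neuroblastoma markers, 5 reached 1 FPKM in AS STRAP KO and 7 in AS WT, with summed levels of 369 FPKM in AS STRAP KO and 466 FPKM in AS WT, and TH, DDC and CHGA were listed at 0 in both. All 6 mesenchymal markers were expressed in both, summing to 1178 FPKM in AS STRAP KO and 1579 FPKM in AS WT, a sum carried by VIM (896 FPKM in AS STRAP KO and 1368 FPKM in AS WT), while 4 of the 6 were higher in AS STRAP KO and the median log2 ratio was 0.46. The 2 mesenchymal markers that differed 2-fold or more went opposite ways. PRRX1 was higher, with 11.5 FPKM in AS STRAP KO and 3.14 FPKM in AS WT. SNAI2 was lower, with 8.41 FPKM in AS STRAP KO and 22.0 FPKM in AS WT. Of 7 fibroblast and stromal markers 3 reached 1 FPKM in AS STRAP KO and 6 in AS WT, with sums of 865 FPKM in AS STRAP KO and 579 FPKM in AS WT. That sum was carried by COL1A1 (785 FPKM in AS STRAP KO and 459 FPKM in AS WT), while COL3A1, FAP, LUM and DCN were lower in AS STRAP KO by 2-fold or more, with DCN listed at 0 there. The 4 immune markers summed to 1.21 FPKM in AS STRAP KO and 1.24 FPKM in AS WT with PTPRC and CD3E at 0 in both, the 3 endothelial markers to 0.882 FPKM in AS STRAP KO and 0.409 FPKM in AS WT, and of the 4 epithelial markers CDH1 was at 0 in both, EPCAM was below 1 FPKM in both, and KRT8 (554 FPKM in AS STRAP KO and 518 FPKM in AS WT) and KRT18 (268 FPKM in AS STRAP KO and 283 FPKM in AS WT) were high in both. The part of the adrenergic, mesenchymal and stromal differences in the MYC difference was not tested.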

How the data were processed

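RNA from AS STRAP KO and AS WT cells (1 library each) was poly(A)-selected and sequenced as single-end reads from a strand-marking kit. The submitters' processing notes name bcl2fastq 2.18.0.12, STAR 2.7.6, Cufflinks 2.2.1, Cuffdiff and GRCh38, and the study's methods name another STAR version. The deposited values were FPKM per gene, made by the authors with Cufflinks, which estimates abundance and keeps no counts. A row can hold several overlapping genes (1734 of 62573 rows did).

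Plain FPKM ratios, AS STRAP KO over AS WT, were taken on the log2 scale with no pseudocount. Rows that reached 1 FPKM in either library were compared, and a ratio of 2-fold or more was called. The study used the same fold but also required significance, which was not applied here, so these calls rest on fold alone. No test was possible with 1 library per group. Depth was estimated from the read steps of low values in 2240 single-transcript genes with at least 1500 bases. It was chosen so that values of about 1 to 5 reads came closest to whole reads. On this estimate 1 FPKM corresponded to 26.7 reads per 1000 bases in AS STRAP KO and 26.3 in AS WT. Of the 326 such values in AS STRAP KO, 92.6% lay within 0.1 of a whole read, as did 94.6% of the 373 in AS WT. These shares come from the values that the depth was fitted to. A fragment length of 200 bases was assumed. Exact binomial 95% intervals from these reads cover counting error only. Coordinates and neighbours came from GENCODE 44 (GRCh38) and promoters from RefSeq. Neighbours were expressed protein-coding genes with rows of their own that start within 5 Mb of a gene's start. Genes in shared rows and noncoding genes were left out of them. The alternatives were pseudocounts of 0.1 and 1 FPKM, other filters, 5 scalings, the treatment of repeated or shared rows and a 1.5-fold threshold, with the neighbour median and a 10 FPKM filter added after seeing the data. The members and gene lists were chosen with earlier results of these data known. Named genes were all members, MXI1, MLXIP and MLXIPL, expressed genes of the MYC and MYCN loci, every list gene at least 2-fold different and, of each list's up to 4 widest ratios, those the text describes. SQLE, FAM49A and genes listed at 0 were named after their values were seen. The scripts were tested on simulated data. Python 3.11.15, pandas 2.3.3 and SciPy 1.17.1 were used.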

Additional observations from a re-analysis of the deposited data

How the results depend on the processing

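MYC stayed lower by 2-fold or more in AS STRAP KO in all 8 alternatives that could move it, which are the pseudocounts, the scalings and the neighbour median, with log2 ratios of -1.32 to -1.07: it was -1.12 at a common total, -1.07 at a common total without mitochondrial rows and -1.32 at a common upper quartile, which shift all ratios by 0.11, 0.15 and -0.10. The count of members at least 2-fold higher was 1 (MGA) in place of 0 at a common total, at a common total without mitochondrial rows, at a 1.5-fold threshold and with the neighbour median subtracted, and 2 members were lower at 1.5-fold. With the neighbour median subtracted, an alternative chosen after seeing the data, MAX (-0.12), MXD4 (-0.044) and MXI1 (-0.32) changed sign. The median log2 ratio of induced MYC targets was 0.10 at a common total, 0.14 without mitochondrial rows and 0.011 under a trimmed mean. It also moved the other way, to a lowest value of -0.10 over the alternatives. Of these targets 2 were at least 2-fold higher at the total without mitochondrial rows, and 5 were lower and 6 higher at 1.5-fold. The log2 ratio of MYC to its antagonists was -1.31 with rows of 1 symbol only. The looser E-box raised the share of member promoters to 88.9%. A list median counted as moved when it changed by more than 0.10 or changed sign. A list count did so when the larger value exceeded 1.5 times the smaller, or when 1 of them was 0. Over the alternatives, 40 of 195 values of the 15 list medians moved, as did 41 of 420 values of the 30 list counts. The shifts of 0.11 and 0.15 at the common totals exceed 0.10 by themselves, and other causes of these moves were not tested. No paired analysis was possible because each condition has 1 library, and leaving out a library was not possible for the same reason.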
